A study of Homo sapiens with 8 samples.

Results

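TRPM7 knockdown in SH-SY5Y cells was examined on bead arrays, and the genes described are those of functional families other than those that the study tabulates. SH-SY5Y is a human neuroblastoma cell line of neuroblastic type. Control cells carried a lentiviral scrambled shRNA, and TRPM7 shRNA cells carried 1 lentiviral shRNA against TRPM7, a channel fused to a protein kinase. Transduced cells of both kinds were selected with puromycin. The comparison takes 4 of the 8 arrays of the series, 2 of control and 2 of TRPM7 shRNA cells. The other 4 arrays are of SH-EP2, an epithelial-like neuroblastoma line given the same shRNAs. They entered the normalization, the choice of probe and the fitted spread behind every p-value. Their own values are given only where an SH-SY5Y effect is set against them. Neither the labels nor the methods say that the duplicates are separate cultures, so that p-values measure the spread between these arrays, which may be technical. Because 1 shRNA sequence was used, effects on genes other than through TRPM7 cannot be told apart from those of the knockdown.

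Neuroblastoma arises from the sympathetic lineage of the neural crest, and neuroblastic lines keep the enzymes and transcription factors of noradrenergic neurons. TRPM7 passes magnesium, calcium and zinc, and its kinase acts on myosin II, which ties it to adhesion and to contraction of the cytoskeleton. Such cells store catecholamines and neuropeptides in vesicles, bind matrix through integrins and each other through cadherins, and many show little antigen presentation on MHC class I.

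TRPM7 itself was measured by 1 probe that no array detected, at a detection p under 0.05. Its log2 normalized signal was 2.81 and 3.02 on the control arrays and 2.69 and 2.63 on the TRPM7 shRNA arrays. These are background signals, and so the knockdown cannot be read from the arrays and the labels cannot be checked by it. GAPDH, a glycolytic enzyme common to all cells, had log2 signals of 13.16 and 13.22 in control and 13.25 and 13.06 in TRPM7 shRNA cells, with overlapping groups. MYCN, an oncogene of neuroblastoma, was at 7.06 and 7.12 in control and 6.32 and 6.62 in TRPM7 shRNA cells, a difference that did not pass (log2 fold change -0.62, standard error 0.32, adjusted p = 0.502 from limma).

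The neuroblastic label was borne out by the signals of its markers. Of 13 noradrenergic markers, 12 were detected on all 4 arrays, including the transcription factor HAND2 and the vesicle protein CHGA, while TH, the first enzyme of catecholamine synthesis, was not detected on any. The summed linear signal of the 13 was 38294 to 39128 in control and 27345 to 29392 in TRPM7 shRNA cells, and 3 of them were lower (DBH, ISL1 and STMN2), whereas the median log2 signal of the list was 10.87 in control and 10.86 in TRPM7 shRNA cells. Among 12 mesenchymal markers 9 were detected on all 4 arrays, FN1 and PRRX1 on none, and the summed signal was 20648 to 22041 in control and 20484 to 20525 in TRPM7 shRNA cells, with 2 higher (LUM and NT5E) and 2 lower (VIM and S100A6). SOX10, a defining factor of Schwann cells, was undetected, and of 5 melanocyte markers 2 were detected. In bulk RNA, fewer cells of one kind and less RNA per cell cannot be told apart, and the part of a shift in cell kinds in the results was not tested.

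Over all 47322 probes, 386 were higher in TRPM7 shRNA cells (0.816%) and 617 lower (1.3%) at an adjusted p under 0.05. Signals were background corrected, brought to common quantiles across all 8 arrays and put on a log2 scale, and p-values come from limma with Benjamini-Hochberg adjustment over all probes. Taking the brightest probe of each of 20577 genes, 283 genes were higher (1.38%) and 450 lower (2.19%). Among 11733 genes detected on both arrays of a group, those called were 276 higher (2.35%) and 448 lower (3.82%). Counts of list members are to be read against the shares over all genes. The split by direction depended on scaling, since median scaling in place of quantile normalization gave 553 probes higher and 284 lower. The counts also rested on the modelled spread, since 64 probes passed when limma was run without its intensity trend. Of the 160 called genes followed by name, 82 passed with each of the 4 arrays left out in turn and 30 passed without the trend.

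Promoters of the metallothionein and antigen presentation genes described further on are printed here, because both gene groups are known for a short control element close to the gene start. Each is the 250 bases before the start in RefSeq for GRCh38.p14, on the strand of the gene. In the metallothioneins, capitals mark the metal response element, searched on both strands as TGCGCNC or TGCACNC. MT2A lies at chr16:56608334-56608583 on the plus strand and MT1X at chr16:56682220-56682469 on the plus strand.
MT2A: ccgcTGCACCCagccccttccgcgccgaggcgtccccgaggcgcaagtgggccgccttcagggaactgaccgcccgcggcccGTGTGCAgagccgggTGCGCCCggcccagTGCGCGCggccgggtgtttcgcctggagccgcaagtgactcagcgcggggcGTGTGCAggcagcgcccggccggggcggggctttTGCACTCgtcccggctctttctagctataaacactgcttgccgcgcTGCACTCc
MT1X: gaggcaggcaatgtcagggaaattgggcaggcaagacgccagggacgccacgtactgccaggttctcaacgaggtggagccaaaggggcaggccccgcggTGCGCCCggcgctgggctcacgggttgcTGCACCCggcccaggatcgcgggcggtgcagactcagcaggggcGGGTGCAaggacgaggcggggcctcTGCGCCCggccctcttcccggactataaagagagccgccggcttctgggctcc
In the antigen presentation and interferon response genes, capitals mark the interferon-stimulated response element, searched on both strands as GAAANNGAA, with overlapping matches run together. TAP1 lies at chr6:32853705-32853954 on the minus strand, B2M at chr15:44711267-44711516 on the plus strand and IFITM3 at chr11:320861-321110 on the minus strand.
TAP1: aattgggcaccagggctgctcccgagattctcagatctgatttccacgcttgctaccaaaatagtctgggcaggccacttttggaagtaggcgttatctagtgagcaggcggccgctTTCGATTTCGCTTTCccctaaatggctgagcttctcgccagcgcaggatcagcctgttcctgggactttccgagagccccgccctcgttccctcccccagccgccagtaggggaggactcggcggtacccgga
B2M: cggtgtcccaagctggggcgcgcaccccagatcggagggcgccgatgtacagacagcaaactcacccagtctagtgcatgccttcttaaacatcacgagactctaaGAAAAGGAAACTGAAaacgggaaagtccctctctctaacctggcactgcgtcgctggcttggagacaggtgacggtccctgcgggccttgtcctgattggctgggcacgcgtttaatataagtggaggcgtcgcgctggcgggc
IFITM3: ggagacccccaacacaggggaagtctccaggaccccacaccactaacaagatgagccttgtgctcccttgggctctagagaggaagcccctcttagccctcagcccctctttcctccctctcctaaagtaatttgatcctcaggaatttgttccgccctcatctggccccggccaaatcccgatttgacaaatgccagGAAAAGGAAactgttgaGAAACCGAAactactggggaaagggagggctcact
The capitals form 7 runs in MT2A, 4 in MT1X, 1 each in TAP1 and B2M, and 2 in IFITM3. The interferon element stood in 7.06% of all 27305 promoters in the table, 6.01% of the 15089 of genes tested, 5.29% of the 227 called higher and 5.65% of the 372 called lower, and in 14 of 23 promoters of the interferon and MHC class I list. The metal element stood in 24.7%, 29.7%, 29.5% and 32.3% of the same sets in that order. A match describes the letters only and is not a measured binding site.

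Neuropeptide precursors gave the increase with the largest fold among genes measured on all 4 arrays. NTS, the precursor of neurotensin, had log2 signals of 5.26 and 5.54 in control and 9.76 and 9.90 in TRPM7 shRNA cells, a 21.5-fold increase (log2 fold change 4.43, standard error 0.22, adjusted p = 3.45e-10). Another NTS probe was undetected on all 4 arrays and not called (0.18, adjusted p = 0.866). VIP, the precursor of vasoactive intestinal peptide, rose 8.06-fold, from 6.76 and 6.60 to 9.63 and 9.75 (log2 fold change 3.01, standard error 0.30, adjusted p = 3.11e-06). For both genes the groups do not overlap, which was a condition for naming genes by the size of their change. GAL, the precursor of galanin and a marker of sympathetic neuroblasts, went the other way, from 9.49 and 9.48 to 8.41 and 8.44 (log2 fold change -1.06, standard error 0.25, adjusted p = 0.028). Its change lay between -1.07 and -1.05 with any 1 array left out, but no longer passed then, nor with median scaling. In the list of 37 peptide and granin genes, 2 were higher and 1 lower (1.38% and 2.19% over all genes). The median log2 fold change of the list was -0.02, against 0.01 over all genes. None of the 11 granins and processing enzymes was called.

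**Figure D1:**
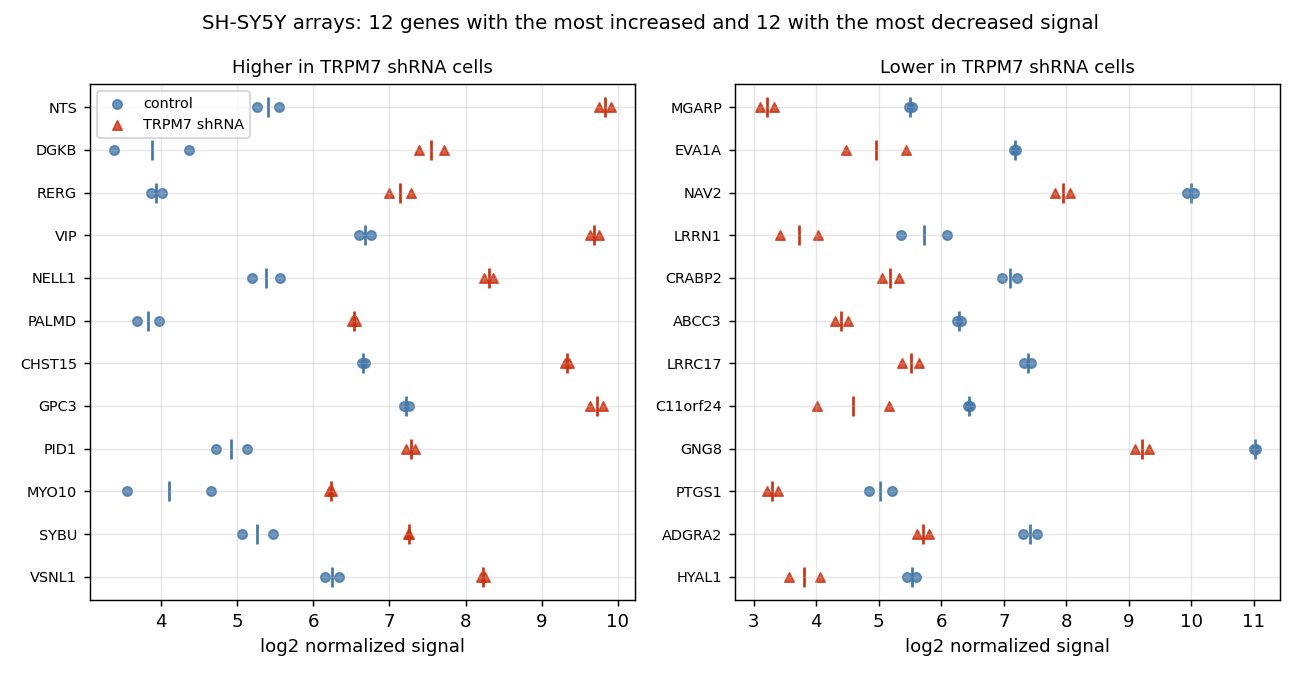
Log2 normalized signal (x axis) of each SH-SY5Y array for the 12 genes with the largest called increases and the 12 with the largest called decreases, among genes detected on all 4 arrays. Circles are the 2 control arrays, triangles the 2 TRPM7 shRNA arrays and vertical ticks their means. Only genes whose 2 groups do not overlap were eligible, so their separation follows from the choice. NTS moved from 5.40 to 9.83.

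Of 20 genes of the fast transmitter list, for GABA, glutamate and acetylcholine, 3 were higher and 0 lower (1.38% and 2.19% over all genes), and none of its 8 glutamate genes was called. SLC32A1, the vesicular transporter of GABA and glycine, read 3.14 and 1.80 on the control arrays, where 1 of 2 detected it, and 6.58 and 6.43 on the TRPM7 shRNA arrays (log2 fold change 4.03, standard error 0.52, adjusted p = 7.8e-05). The change ranged from 3.37 to 4.68 with an array left out. ABAT, which breaks down GABA, was at 6.29 and 5.27 in control and 7.19 and 7.31 in TRPM7 shRNA cells (log2 fold change 1.47, adjusted p = 0.043). This call was lost without control replicate 2 and without either TRPM7 shRNA array (0.97 to 1.99 with an array left out). BCHE, butyrylcholinesterase, rose from 7.0 and 6.93 to 7.84 and 7.96 (log2 fold change 0.93, standard error 0.13, adjusted p = 0.00014).

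Catecholamine genes moved in single members. MAOB, a mitochondrial oxidase of amines, read 5.06 and 5.33 in TRPM7 shRNA cells against 2.44 and 2.97 in control cells, where it was undetected, a rise of at least 4.11-fold (adjusted p = 0.00782). It did not pass without control replicate 1 or without either TRPM7 shRNA array (adjusted p up to 0.0885). QDPR, which regenerates the pterin cofactor of tyrosine hydroxylase, rose from 10.52 and 10.58 to 11.18 and 11.29 (log2 fold change 0.68, standard error 0.09, adjusted p = 8.7e-05). Of 18 sympathetic transcription factors, ISL1 (-0.45, adjusted p = 0.014) and SOX4 (-0.52, adjusted p = 0.0057) were lower and none was higher (2.19% and 1.38% over all genes). The median of these 18 was -0.32. With median scaling neither ISL1 nor SOX4 passed. The ISL1 call was lost without either control array or TRPM7 shRNA replicate 2 (-0.51 to -0.39). That of SOX4 was lost without TRPM7 shRNA replicate 1 (-0.67 to -0.37 with an array left out). Without background correction 8 of the 18 were lower and 2 higher. With neqc, with normexp and with the SH-SY5Y arrays alone 1 was higher in each, so that the counts here follow the processing.

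Excitability and release genes changed in few members. SYT4, a calcium sensor of dense-core vesicles, was among the brighter genes and fell from 12.84 and 12.90 to 11.84 and 11.78 (log2 fold change -1.06, standard error 0.16, adjusted p = 0.00058). VSNL1, a neuronal calcium sensor, rose from 6.16 and 6.34 to 8.26 and 8.20 (log2 fold change 1.99, standard error 0.23, adjusted p = 1.74e-05). SCGN, another calcium-binding protein of secretory cells, was undetected in control cells and rose at least 3.88-fold (adjusted p = 0.00414), but did not pass without control replicate 2 (adjusted p = 0.0543). Of 26 potassium channel genes 2 were higher and 1 lower (1.38% and 2.19% over all genes). KCNMA1, the pore of the BK channel, rose from 5.65 and 5.46 to 6.41 and 6.43 (0.86, adjusted p = 0.016), and LRRC26, an auxiliary subunit of that channel, was undetected in control cells and rose at least 3.3-fold (adjusted p = 0.0315). The KCNMA1 call was lost without control replicate 2 or either TRPM7 shRNA array (0.76 to 0.97), and that of LRRC26 without any 1 array (adjusted p up to 0.211). None of 22 sodium and calcium channel genes and none of 36 ligand-gated receptor genes was called.

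Signalling through lipids and G proteins held some of the larger single changes. DGKB, which turns diacylglycerol into phosphatidic acid, was at 4.36 and 3.39 in control and 7.39 and 7.71 in TRPM7 shRNA cells, a 12.8-fold increase (log2 fold change 3.67, standard error 0.23, adjusted p = 1.15e-08). Other DGKB probes were undetected on every SH-SY5Y array and not called (0.51 and 0.15). RERG, a small GTPase of the RAS family that slows growth, rose 9.19-fold from 3.87 and 4.01 to 7.29 and 7.0 (adjusted p = 4.32e-08). GNG8, a G protein gamma subunit, was bright and fell from 11.03 and 11.01 to 9.32 and 9.09 (log2 fold change -1.81, standard error 0.23, adjusted p = 6e-05). In the second messenger list of 46 genes, 1 was called higher and 2 lower (1.38% and 2.19% over all genes). DGKB was the higher member, and PRKCH (-0.68, adjusted p = 0.017) and PRKACB (-1.24, adjusted p = 0.025) were the 2 called lower. Neither of these passed without control replicate 2 or TRPM7 shRNA replicate 1 (-0.78 to -0.57 for PRKCH and -1.56 to -0.92 for PRKACB), and a second PRKACB probe read 0.41 in the other direction.

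Interferon response and MHC class I genes were lower in TRPM7 shRNA cells in 10 of 30 members and higher in 1, where 2.19% of all genes were lower. The list was drawn up with the lower MHC class I signals in these arrays already known, so its count is not independent evidence of the direction. Its median log2 fold change was -0.36, against 0.01 over all genes. TAP1, the peptide transporter that loads MHC class I, read 5.54 and 5.14 in control cells and was not detected in TRPM7 shRNA cells, where it was at least 4.97-fold lower (adjusted p = 2.89e-09). PSMB8, a subunit of the immunoproteasome that makes those peptides, fell from 5.39 and 5.98 to 3.05 and 3.0, with 1 of 2 TRPM7 shRNA arrays detecting it (log2 fold change -2.66, standard error 0.18, adjusted p = 1.5e-08). UBA7, which activates the ubiquitin-like protein ISG15, was named for its size and not for the list, and was at least 4.18-fold lower (adjusted p = 1.37e-06).

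Chains of MHC class I itself fell less than TAP1 and PSMB8. B2M, the shared light chain, went from 11.93 and 11.64 to 11.31 and 11.38 (log2 fold change -0.44, standard error 0.08, adjusted p = 0.0024). HLA-E fell from 5.82 and 5.57 to 4.88 and 4.73 (-0.89, adjusted p = 0.00091), and HLA-F fell by 0.52 on the log2 scale (adjusted p = 0.033). The HLA genes resemble each other, and their probes may share signal. IFITM2 and IFITM3, membrane proteins that block virus entry and near copies of one another, fell by 0.82 and 1.04 (adjusted p = 4.2e-06 and 8.7e-06). IFI44L was the exception, undetected in control cells and at least 1.77-fold higher with the TRPM7 shRNA (adjusted p = 0.00034), while IRF1 (-0.09) and IRF9 (-0.06), which carry the interferon signal, were not called. TAPBP and IFI44, other members called lower, were lost without control replicate 1 or either TRPM7 shRNA array (-0.73 to -0.39 and -0.71 to -0.51 with an array left out), and HLA-F without either control array or TRPM7 shRNA replicate 2 (-0.68 to -0.36). The IFI44L and HLA-E calls were lost with normexp, without background correction and with the SH-SY5Y arrays alone. With median scaling 5 of the 10 lower genes still passed, and without the intensity trend TAP1 and PSMB8.

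**Figure D2:**
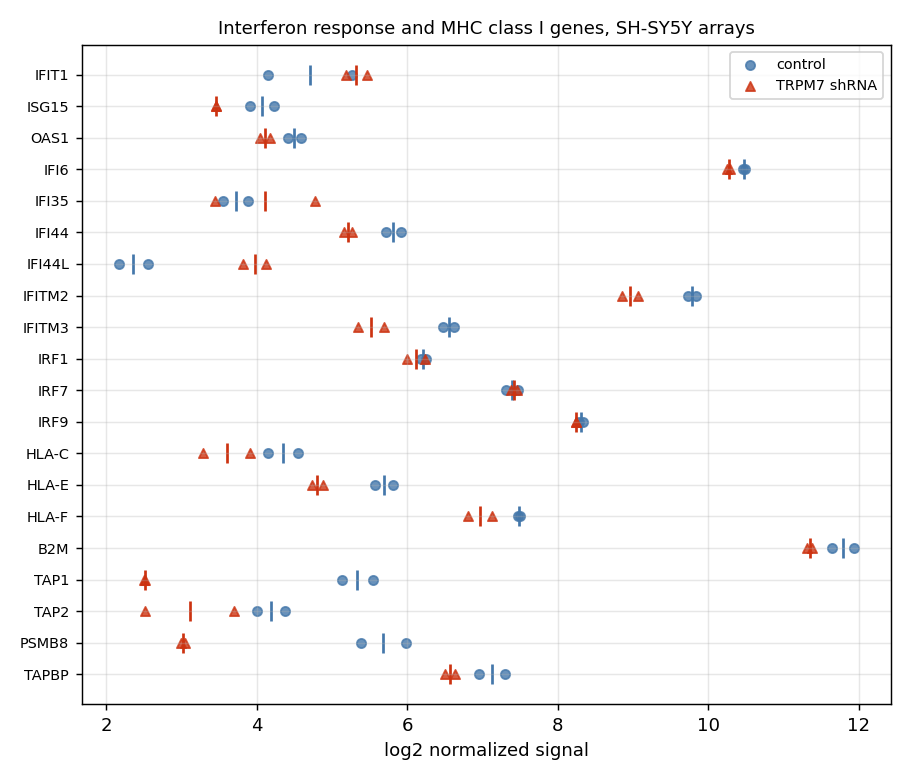
Log2 normalized signal (x axis) on each SH-SY5Y array for the interferon response and MHC class I genes that at least 1 array detected, apart from a few that are not reported. Circles are the 2 control arrays, triangles the 2 TRPM7 shRNA arrays and ticks their means. TAP1 and PSMB8 lie furthest apart, and the groups overlap for IRF7.

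Zinc and magnesium genes were looked at because TRPM7 carries both ions. Of 19 zinc transporter and metallothionein genes 3 were lower and 1 higher (2.19% and 1.38% over all genes). The 3 lower genes were metallothioneins, small proteins that hold zinc. MT2A went from 8.22 and 8.53 to 7.83 and 7.28 (log2 fold change -0.81, standard error 0.13, adjusted p = 0.001) and MT1A from 8.77 and 9.10 to 8.33 and 8.05 (-0.75, standard error 0.11, adjusted p = 0.000287). MT1X fell by 0.42 (adjusted p = 0.028), a call lost without control replicate 2 or TRPM7 shRNA replicate 2 (-0.54 to -0.29). MT1E (-0.00) and MT1F (-0.32) were not called, and MT1G, MT1M and MT3 were undetected on every SH-SY5Y array. Since the metallothionein genes are near copies, their probes may share signal. SLC39A6, a zinc importer, rose from 8.72 and 8.84 to 9.38 and 9.27 (0.54, adjusted p = 0.017), but not without control replicate 1 or either TRPM7 shRNA array (0.48 to 0.60). Of 13 magnesium transporter genes MMGT1 was lower (-0.45, adjusted p = 0.025, lost without any 1 array at -0.49 to -0.40) and the rest were not called, and 7 of the 8 melastatin TRP channels were undetected.

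Of 21 cadherins and protocadherins, which join cells to each other, 4 were higher and 0 lower (1.38% and 2.19% over all genes), 17 were not called and 9 were detected. Their median log2 fold change was 0.25. CDH11, a mesenchymal cadherin, was at 9.16 and 9.04 in control and 9.84 and 9.99 in TRPM7 shRNA cells (log2 fold change 0.81, standard error 0.10, adjusted p = 5.7e-05). PCDH17, a protocadherin of neurons, rose from 6.26 and 5.67 to 7.88 and 7.78 (1.86, standard error 0.30, adjusted p = 0.0011). PCDH7, undetected in control cells, rose at least 1.32-fold (adjusted p = 0.0016), a call lost with neqc, with normexp, with the SH-SY5Y arrays alone and in the mean over probes. CDH2, neural cadherin, rose from 12.58 and 12.63 to 12.86 and 12.94 (0.30, adjusted p = 0.029). The CDH2 call was lost without any 1 array (0.26 to 0.33).

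Other adhesion proteins of neurons were higher in 5 of 43 genes and lower in 1 (1.38% and 2.19% over all genes), with 2 higher on leaving out any 1 array. ADGRL3, a latrophilin that binds teneurins and FLRT proteins across the synapse, read 5.42 and 5.25 in TRPM7 shRNA cells against an undetected 2.16 and 1.83 in control cells, a rise of at least 4.54-fold (adjusted p = 0.000213). Its partner FLRT3 rose from 7.49 and 7.54 to 8.69 and 8.72 (1.19, adjusted p = 0.035). NCAM2, a neural adhesion molecule, rose from 4.78 and 4.31 to 6.27 and 6.09 (1.64, standard error 0.26, adjusted p = 0.001). LINGO4, of the leucine-rich repeat proteins, was the one decrease, detected in control cells only at 6.26 and 6.33, and at least 9.67-fold lower (adjusted p = 4.27e-05). The calls of FLRT3 (1.16 to 1.21) and of CNTNAP2 (0.83, adjusted p = 0.037, 0.80 to 0.86) were lost without any 1 array.

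Matrix genes moved both ways. Of 53 integrin, collagen and matrix genes, 6 were higher and 8 lower (1.38% and 2.19% over all genes), of them 0 and 2 of 14 integrins, 1 and 2 of 17 collagens, and 5 and 4 of 22 other matrix proteins. With median scaling the counts were 7 and 6. DCN, decorin, and LUM, lumican, small proteoglycans that bind collagen, rose from 10.46 and 10.46 to 11.57 and 11.58 and from 10.90 and 10.82 to 11.66 and 11.61 (log2 fold changes 1.12 and 0.78, adjusted p = 1.1e-05 and 2.2e-05). BGN, biglycan, of the same class of proteoglycans, fell from 3.55 and 3.61 to 3.08 and 1.99 (-1.05, standard error 0.21, adjusted p = 0.0072), and did not pass without control replicate 2 (-1.60 to -0.49 with an array left out). LAMC1, a chain of laminins in basement membranes, fell from 10.66 and 10.54 to 9.79 and 9.38 (-1.02, standard error 0.11, adjusted p = 5.2e-06). ITGAV and ITGB5, which pair as a receptor of vitronectin, fell together, from 8.32 and 8.51 to 7.82 and 7.78 and from 10.02 and 10.06 to 9.39 and 9.39 (-0.61 and -0.65, adjusted p = 0.0012 and 0.00011). COL5A1, a fibrillar collagen chain, fell by 0.70 (adjusted p = 5.9e-05). Among enzymes and regulators of the matrix, ADAMTS9, a protease of proteoglycans, fell from 10.30 and 10.18 to 8.81 and 8.65 (-1.51, adjusted p = 0.00021), ADAM23, an integrin-binding membrane protein without protease activity, rose from 6.46 and 6.49 to 8.0 and 8.02 (1.53, adjusted p = 1e-06), and CHST15, which sulfates chondroitin, rose 6.39-fold (adjusted p = 5.73e-06).

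**Figure D3:**
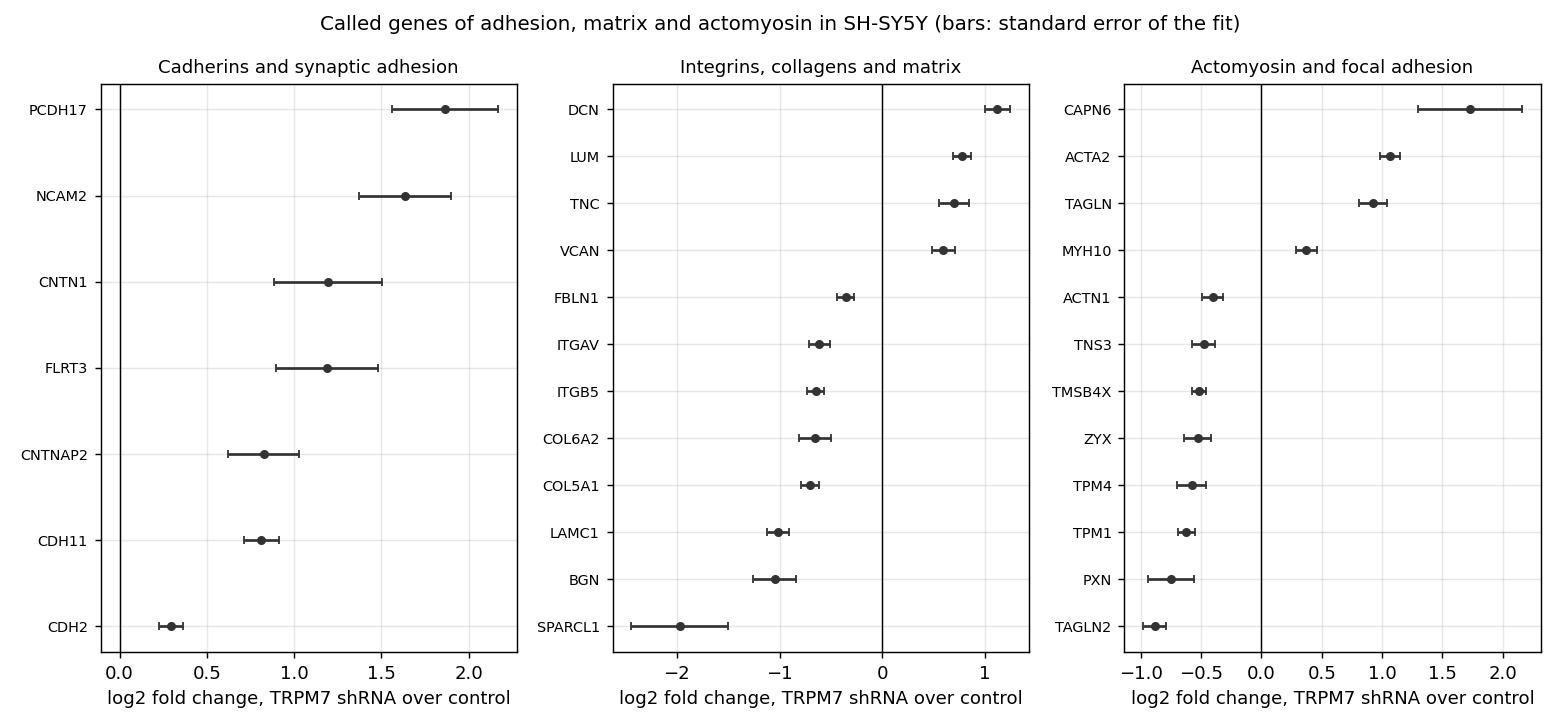
Log2 fold change of TRPM7 shRNA over control (x axis) of the called genes of the cadherin and synaptic adhesion, matrix and actomyosin lists in SH-SY5Y cells, with bars for the standard error. Genes undetected in one group are left out. All cadherins shown lie above 0, whereas matrix and actomyosin genes lie on both sides.

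Of 56 actomyosin and focal adhesion genes 8 were lower and 4 higher (2.19% and 1.38% over all genes), but 3 and 4 with median scaling, so that the split turned with the scaling. ACTA2, smooth muscle actin, and TAGLN, transgelin, both typical of contractile cells, rose from 8.58 and 8.80 to 9.71 and 9.81 (log2 fold change 1.07, standard error 0.09, adjusted p = 2.4e-07) and from 4.89 and 5.02 to 5.68 and 6.08 (0.92, adjusted p = 7.4e-05). TAGLN2, a related actin-binding protein of other cells, fell from 10.23 and 10.43 to 9.58 and 9.31 (-0.88, adjusted p = 9.6e-06). TMSB4X, which holds actin monomers, fell from 13.71 and 13.83 to 13.27 and 13.24 (-0.52, adjusted p = 1.5e-05). TPM1, tropomyosin, fell by 0.62 in its brightest probe (adjusted p = 1.7e-05). Its other detected probes read -0.70 (adjusted p = 8.67e-06), 0.80 (adjusted p = 0.0308) and 0.35 (adjusted p = 0.596), so that the probes disagreed. MYO10, the myosin of filopodia, was not in the list and rose from 4.66 and 3.56 to 6.25 and 6.21 (2.12, adjusted p = 0.000122).

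Genes of growth factor output and of BMP signalling fell in single members. Of 41 BMP and TGF-beta genes, 4 were lower and 1 higher (2.19% and 1.38% over all genes). EGR1, an immediate early transcription factor of the ERK pathway, went from 6.94 and 7.08 to 5.70 and 5.55 (log2 fold change -1.39, standard error 0.12, adjusted p = 6.7e-07), and in its list 3 of 35 were lower and 0 higher. ENG, a coreceptor of BMP and TGF-beta ligands, fell from 5.85 and 5.80 to 4.02 and 4.22 (-1.70, standard error 0.15, adjusted p = 5.4e-07). ID1, a direct target of BMP receptors, fell from 10.25 and 10.38 to 9.52 and 9.52 (-0.79, adjusted p = 1.7e-05). Another detected ID1 probe was not called (-0.35, adjusted p = 0.754). BAMBI, a decoy receptor that is also a target of the pathway, rose from 10.68 and 10.83 to 11.60 and 11.66 (0.87, adjusted p = 3.3e-06). PDGFRA, the PDGF receptor alpha, fell from 9.89 and 9.60 to 8.90 and 8.78 (-0.91, adjusted p = 0.00063). SLIT3 and SEMA3C, repulsive guidance ligands, fell by 1.01 (adjusted p = 4.6e-05) and 1.09 (adjusted p = 0.0007), whereas SEMA3A rose by 0.62 (adjusted p = 0.024) and was lost without either control array or TRPM7 shRNA replicate 1 (0.50 to 0.75). In the Wnt list of 49 genes DKK2, an antagonist, alone was called (-1.54, adjusted p = 0.0054, a call that leaving out control replicate 2 or TRPM7 shRNA replicate 1 ended at -1.77 to -1.32).

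Of 18 retinoid genes 2 were lower and 0 higher, and of 18 genes of the IGF system 3 were lower and 2 higher (2.19% and 1.38% over all genes). CRABP2, which carries retinoic acid to the nucleus, was at 7.21 and 6.98 in control and 5.32 and 5.05 in TRPM7 shRNA cells (log2 fold change -1.91, standard error 0.12, adjusted p = 1.15e-08). RARB, a receptor of retinoic acid and a known target of it, was detected by its brightest probe in control cells only, at 4.91 and 4.25. It was at least 2.94-fold lower in TRPM7 shRNA cells (adjusted p = 5.3e-06). Another RARB probe, detected on 1 array of each group, was not called (-0.49, adjusted p = 0.805). NAV2, in neither list, a neuron navigator first found as a retinoic acid responsive gene, fell from 10.04 and 9.94 to 8.05 and 7.83 (-2.05, adjusted p = 2.89e-09). IGFBP3, IGFBP5 and IGFBP6, secreted binding proteins of IGFs, fell by 0.78, 1.13 and 1.19 on the log2 scale (adjusted p = 3.5e-05, 1.1e-06 and 0.00022). LIN28B, which blocks the maturation of let-7 and is overexpressed in neuroblastoma, rose from 7.69 and 7.80 to 9.0 and 8.96 (1.23, standard error 0.20, adjusted p = 0.0012). IGF2BP3, an RNA-binding protein of the IGF2 transcript, rose by 0.38 (adjusted p = 0.044), a call lost without control replicate 2 or either TRPM7 shRNA array (0.31 to 0.45).

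Metabolic and proliferation genes were called in few members of each list. PHGDH, the first enzyme of serine synthesis, fell from 11.67 and 11.85 to 10.48 and 10.57 (log2 fold change -1.24, standard error 0.08, adjusted p = 1.2e-08). The heat shock and stress response list, which holds PHGDH, had 5 of 34 lower and 0 higher (2.19% and 1.38% over all genes). The 5 became 1 with median scaling, 2 with the SH-SY5Y arrays alone and 1 to 3 with an array left out, the 1 being without TRPM7 shRNA replicate 1. Of 35 respiratory chain genes 2 were higher (1.38% over all genes), COX7C among them by 0.48 (adjusted p = 8.5e-05), and of 29 ribosomal protein genes 2. Cell cycle genes gave 2 higher and 4 lower of 47 (1.38% and 2.19% over all genes), and 3 higher and 1 lower with median scaling. Of the 13 G1 cyclin and inhibitor genes among the 47, 2 were higher and 1 lower. The lower one was CDKN2C, an inhibitor of CDK4 and CDK6, which fell by 0.84 in its brightest probe (adjusted p = 0.00013). For CDKN2C 2 other detected probes were not called (-0.02 and -0.39, adjusted p = 0.991 and 0.844). Of 31 p53 target and BCL2 family genes 2 were higher and 1 lower (1.38% and 2.19% over all genes). Among the 16 of the BCL2 family 1 was higher and 1 lower. The lower one was BID, a killer protein of that family, which fell by 0.93 (adjusted p = 3.9e-05). No member was called among 22 GDNF, neurotrophin and ALK pathway genes other than RET, 27 SOX, PAX and neural crest factors, 35 DLX, MSX and HOX genes and 19 imprinted genes, in lists that leave out the genes the study tabulates. This held for the setting used here, since 1 or 2 GDNF list genes were lower with neqc, with normexp, without background correction and with the SH-SY5Y arrays alone, 1 imprinted gene was higher and 1 lower in each of these, and 1 gene of the SOX and PAX list was higher with median scaling. RET, the GDNF receptor and one of those, fell from 8.80 and 8.82 to 5.99 and 5.91 (-2.86, standard error 0.26, adjusted p = 1.2e-06).

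**Figure D4:**
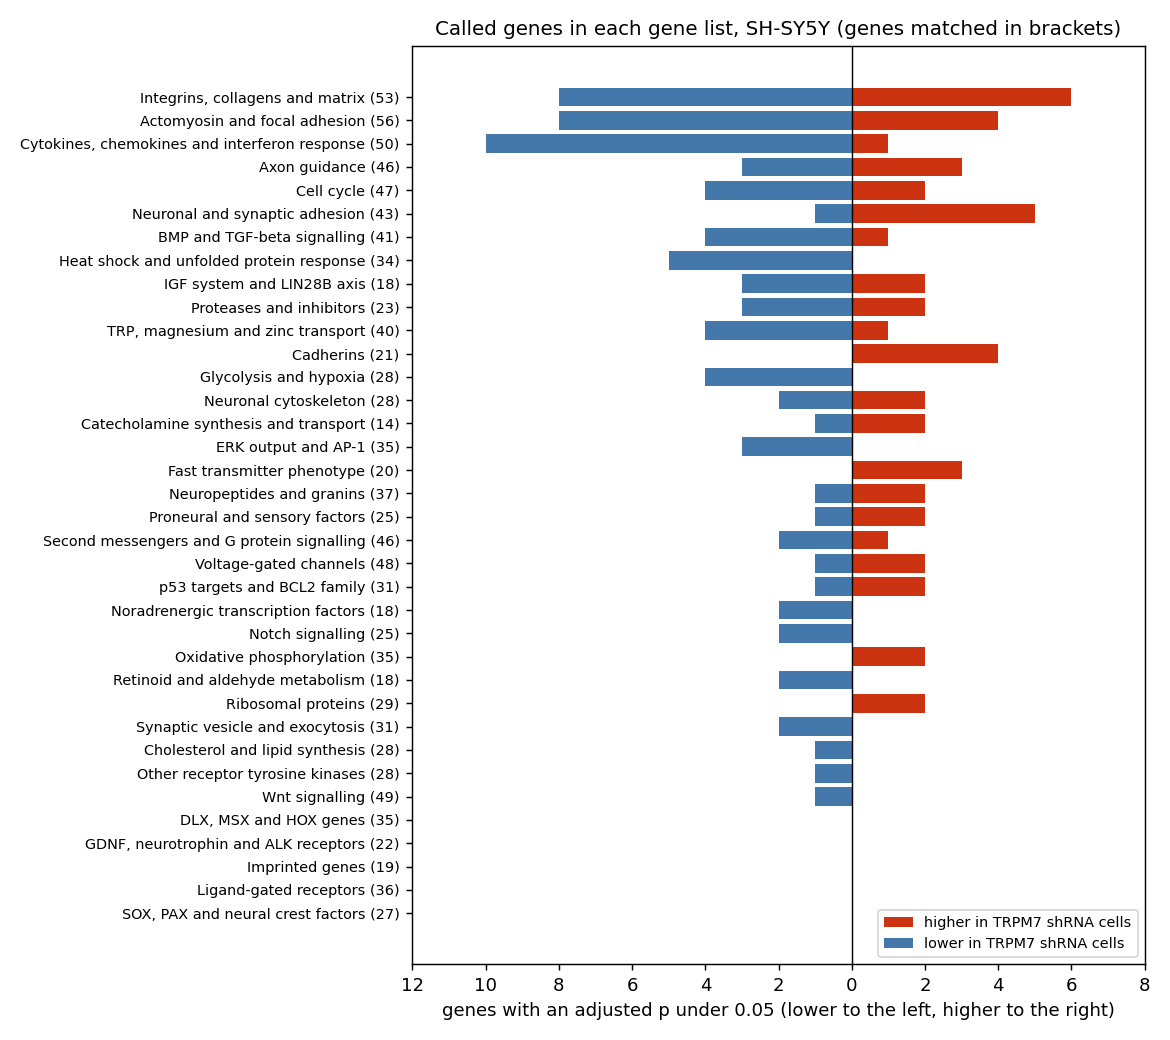
Number of genes with an adjusted p under 0.05 (x axis) in each of the 36 gene lists (y axis, with the number of genes matched in brackets), higher in TRPM7 shRNA cells to the right and lower to the left. The interferon and cytokine list holds 10 lower genes and 1 higher, the cadherins 4 higher and 0 lower, and 5 lists hold no called gene.

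Named genes outside the lists included a further set with a large fold. NELL1, a secreted protein of bone and nerve, rose from 5.2 and 5.56 to 8.24 and 8.36 (7.61-fold, adjusted p = 1.36e-05), PALMD, palmdelphin, 6.53-fold (adjusted p = 1.76e-08; -0.41 in another probe, detected on 1 array of each group and not called), GPC3, a glypican that modulates growth factors, 5.66-fold (adjusted p = 4.6e-05) and PID1 5.11-fold (adjusted p = 6.58e-07). SYBU, which links vesicles to kinesin, rose 3.97-fold (adjusted p = 0.00161), and not past the threshold without TRPM7 shRNA replicate 1 (log2 fold change 1.79 to 2.19). APOE, the lipid carrier, was undetected in control cells and rose at least 5.13-fold (adjusted p = 2.26e-07), and KLHL14 at least 5.04-fold (adjusted p = 0.00022). EVA1A, a regulator of autophagy, fell from 7.16 and 7.19 to 4.48 and 5.44 (-2.22, adjusted p = 1.01e-06), ABCC3, an efflux pump, from 6.26 and 6.32 to 4.51 and 4.30 (-1.88, adjusted p = 3.52e-07), LRRC17 by 1.87 (adjusted p = 1.22e-08), ADGRA2 by 1.72 (adjusted p = 2.86e-07) and C11orf24 by 1.85 (adjusted p = 0.000239). ODAM (at least 7.39-fold) and PDZK1 (at least 4.45-fold) were detected in control cells only and were lower (adjusted p = 3.52e-05 and 0.000368). RNASE4 was at least 3.1-fold lower in its brightest probe (adjusted p = 0.000424), but was not called in another that 1 array of each group detected (-0.25, adjusted p = 0.907), nor with normexp. The call of MGARP (-2.30, adjusted p = 0.00775) was lost on leaving out control replicate 2 or TRPM7 shRNA replicate 1 (-2.38 to -2.16), that of HYAL1 (-1.72, adjusted p = 0.00819) on leaving out the second array of either group (-1.95 to -1.46), and LRRN1 (-2.0, adjusted p = 0.0214) and PTGS1 (-1.73, adjusted p = 0.0295) without any 1 array (-2.37 to -1.63 and -1.93 to -1.53).

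Set against SH-EP2 cells with the same shRNAs, the effect of the TRPM7 shRNA differed between the lines for 670 of all probes (1.42%), by a test of the difference in limma. Of the 36 genes chosen for the size of their change in SH-SY5Y cells, 24 differed, a count that this choice favours. Of these 24, 10 were detected on no SH-EP2 array and 13 on all 4, so that for the 10 the SH-EP2 value is one of background signal and no effect in that line can be read from it. NTS changed by 0.91 in SH-EP2 and by 4.43 in SH-SY5Y (difference 3.52, standard error 0.31, adjusted p = 1.06e-06). VIP was detected on none of the SH-EP2 arrays and GPC3 on 1 of them. DCN and LUM rose in SH-SY5Y and fell in SH-EP2 (-2.24 and -1.60), as did ACTA2 (-1.67) and CDH11 (-1.30), and IGFBP5 fell in SH-SY5Y and rose in SH-EP2 (1.00). For these 5 genes the difference passed as well (adjusted p = 7.2e-10, 1e-09, 1.8e-10, 4.9e-08 and 5.3e-08). Of the 36, 8 were past the threshold and moved the same way in SH-EP2, among them VSNL1 (2.45), APOE (2.29), CRABP2 (-0.56) and PDZK1 (-1.74). Over all genes called in both lines, 172 moved the same way and 46 the opposite way.

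**Figure D5:**
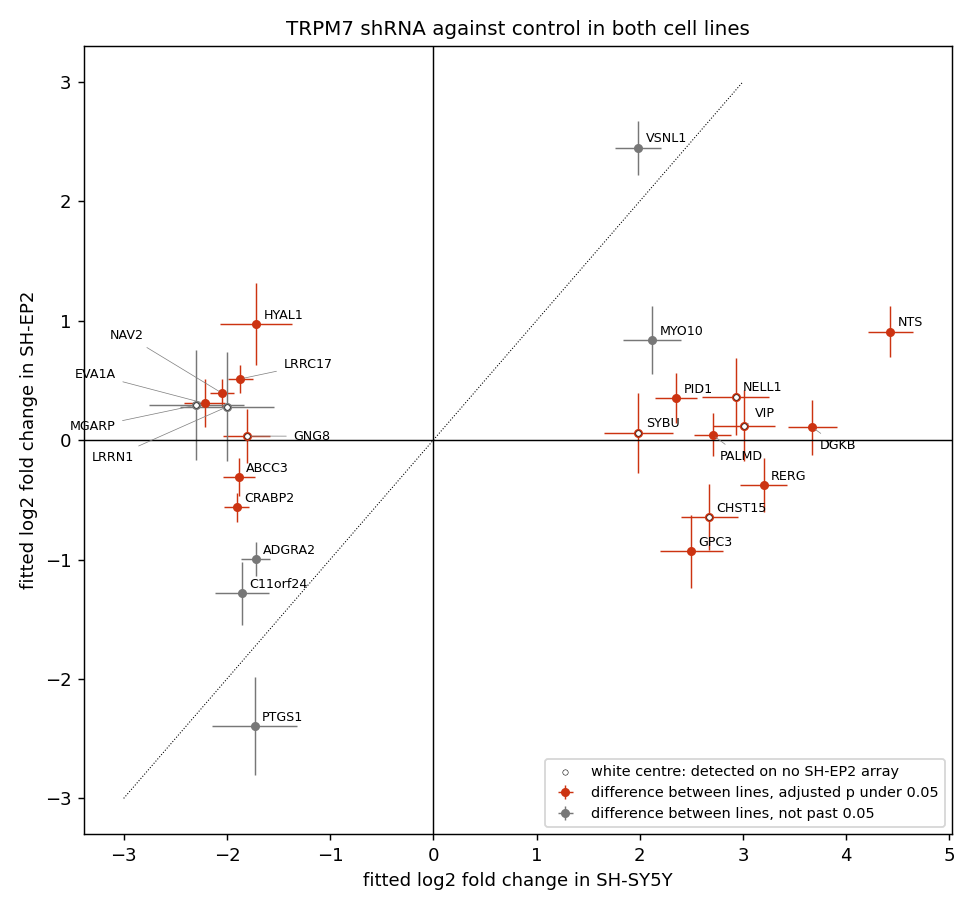
Fitted log2 fold change of TRPM7 shRNA over control in SH-SY5Y (x axis) and in SH-EP2 (y axis) of the 24 genes with the largest called changes in SH-SY5Y, with bars for the standard errors. The dotted line marks equal changes, and points with a white centre are genes that no SH-EP2 array detected. Red points have a difference between the lines past the threshold, and VSNL1 lies near the line at 1.99 and 2.45.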

How the data were processed

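Total RNA of SH-SY5Y and SH-EP2 cells was hybridized to Illumina HumanHT-12 v4 bead arrays, 8 in all and 2 per group, with groups taken from the line and shRNA named in each label. The authors extracted bead signal intensities on a linear scale, and their detection p-values, in GenomeStudio 2011.1 (per the submitters' processing notes) and deposited them without normalization between arrays. On the SH-SY5Y arrays 40.9% to 44.2% of probes were detected, and having 2 arrays per group limits precision.

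Background was removed by the RMA model, arrays were brought to common quantiles, all 8 together, and values were put on a log2 scale. Groups were compared in limma 3.58.1 and statmod 1.5.0 under R 4.3.3 (1 linear model of the 4 groups, with the empirical Bayes prior following intensity), with two-sided p-values adjusted by Benjamini-Hochberg across the probes. A gene stands for its brightest probe by the 8-array mean, with symbols updated through RefSeq for GRCh38.p14. Of the probes 44052 carry a symbol, and 20577 current symbols were found. Where a probe was undetected on both arrays of a group, the fold is a bound, the mean of the brighter group against the higher of the dim signal and the lowest detected signal of each array. The procedure was also run on simulated arrays whose noise followed the intensity trend, with changes added to probes that all 8 arrays detected. Such arrays cannot show how calls fare for dimmer probes or where the spread departs from the trend.

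Genes named are, for detection on all 4 arrays and groups that do not overlap, the 12 largest called increases and 12 decreases. Named as well are the 6 largest bounds in each direction, up to 4 called members per direction of each list, and TRPM7, MYCN, GAPDH and RET. The 36 lists hold 1186 genes, of which 1183 matched, and leave out the genes the study tabulates. The members and lists were chosen with earlier results of these data known. Promoter matches used 15089 of the 20577 genes. A few genes are not reported here. Other settings tried were normexp (offset 50), neqc (offset 16), uncorrected background, median scaling, SH-SY5Y arrays alone, a filter of detection on at least 2 arrays, eBayes without the trend, a per-probe test, the replicate number as a block, gene means of all probes and omission of each array.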

Additional observations from a re-analysis of the deposited data

Results flagged for a closer look

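The effect of the TRPM7 shRNA differed between SH-SY5Y and SH-EP2 cells for 24 of the 36 genes named for size, by an interaction test in limma at an adjusted p under 0.05. Values are the log2 change in SH-SY5Y minus that in SH-EP2. For the 13 genes detected on all 4 SH-EP2 arrays the difference was 3.52 for NTS, 3.57 for DGKB, 3.58 for RERG, 2.66 for PALMD, 2.0 for PID1, -2.38 for LRRC17, -2.69 for HYAL1, -1.58 for ABCC3, -3.18 for TAP1, -2.0 for UBA7, -2.52 for EVA1A, -2.44 for NAV2 and -1.34 for CRABP2. GPC3, detected on 1 SH-EP2 array, gave 3.43. The remaining 10 were detected on no SH-EP2 array, so that their SH-EP2 change is one of background signal and no effect in that line can be read from it. Their fitted differences were 2.89 for VIP, -1.84 for GNG8, 2.56 for NELL1, 3.32 for CHST15, 1.93 for SYBU, 3.70 for ADGRL3, -3.71 for LINGO4, 3.28 for KLHL14, 3.02 for MAOB and -3.75 for ODAM. TAP1, UBA7, KLHL14, MAOB, ADGRL3, LINGO4 and ODAM were also undetected in one SH-SY5Y group, so that these differences are fitted values and not bounds.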

How the results depend on the processing

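The main setting called 1003 probes in SH-SY5Y cells, 386 higher and 617 lower, and 670 for the difference between the lines. Without an intensity trend in eBayes these were 64, 27, 37 and 23, and in a per-probe test without eBayes 50, 16, 34 and 15. Averaging all probes of each gene gave 550, 205, 345 and 358. Without background correction 592 were higher and 1246 differed between the lines, and median scaling gave 553 higher and 284 lower, with the median log2 fold change at 0.09 in place of 0.00. The differences between replicates of the 2 groups correlated at -0.10 over 16944 detected probes. This value cannot decide whether samples with the same replicate number were prepared together. With the replicate block 806 probes passed (285 higher, 521 lower), and with the SH-SY5Y arrays alone 854 (321 higher, 533 lower). A crossed replicate block, added after the replicate differences were seen, gave 1424, of them 588 higher. With each array left out the counts were 621 to 959 in all, 222 to 397 higher, 399 to 562 lower and 541 to 652 for the difference, the total being 621 on omitting TRPM7 shRNA replicate 1 and 637 on omitting control replicate 2. The causes were not tested. GAPDH changed sign, at 0.0552 with median scaling and between -0.130 and 0.0545 with an array left out, and so did PRKACB, at 0.0101 as the mean over its probes. Of 160 called genes followed, 134 kept their call with the replicate block, 124 with the SH-SY5Y arrays alone, 122 with median scaling and 148 with neqc. Probes near background carry little information, and 22444 probes were detected on no SH-SY5Y array.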

Other observations

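Some called genes of the lists were not described above. EBF1, a transcription factor of sensory and sympathetic neurons, was higher by 0.83 (adjusted p = 0.019 from limma) and TLX2, a homeobox factor of enteric and sympathetic neurons, was lower by a log2 change of -0.82 (adjusted p = 0.0023). DCX, a microtubule protein of migrating neurons, was higher by 0.93 (adjusted p = 0.035), and STMN2, which destabilizes microtubules in growth cones, was lower, at -0.58 (adjusted p = 0.022). PFKP, of glycolysis, changed by -0.66 (adjusted p = 0.00042), and LFNG, which modifies Notch, by -0.85 (adjusted p = 0.00038), while another LFNG probe, detected in TRPM7 shRNA cells only, was not called (0.47). The EBF1 call was lost without control replicate 2 or either TRPM7 shRNA array (0.74 to 0.92), and those of DCX (0.89 to 0.97) and STMN2 (-0.65 to -0.52) without any 1 array.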
